A study of Rattus norvegicus with 12 samples.

Results

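Genes of protein folding and amino acid stress were followed in whole blood of WKY and F344 rats, 2 inbred strains, some of which underwent chronic restraint stress (CRS). The 8 genes were taken by symbol, with earlier results of these data known: the amino acid enzyme gene Asns, the endoplasmic reticulum (ER) genes Pdia4, Hspa5 and Hsp90b1, the cytosolic chaperone genes Hsp90ab1 and Hspa8, and the transcription factor genes Atf4 and Ddit3. All 8 were among the 17337 genes of the count tables, and 7 of them were among the 2781 genes that passed the filter on low counts. Ddit3 did not pass it. There were 4 groups of 3 libraries: WKY after CRS, WKY without stress (NS), F344 after CRS and F344 without stress. The rats were males aged 70 to 90 days, and all of them, the unstressed ones included, went through contextual fear conditioning before and after a period that held the restraint. After the first conditioning came 4 weeks in the home cage. Restraint was 2 hours a day over 2 weeks inside breathable restraint bags, while unstressed rats stayed in the home cage. Blood was taken 24 hours after the second fear test. Whether every library is its own rat is not stated, and the p-values speak only of the spread among libraries, which may be technical.

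Proteins that enter the ER are folded there by chaperones and by enzymes that form disulfide bonds. When unfolded proteins build up, the sensors Ire1, Perk and Atf6 raise the transcription of these helpers, a programme called the unfolded protein response. Perk, like the amino acid sensor Gcn2, slows translation and thereby favours the factor Atf4, which turns on Asns, other amino acid genes and Ddit3. In the cytosol a separate heat shock response, run by Hsf1, raises the Hsp70 and Hsp90 chaperones. In blood these genes are active in white cells, most of all in plasma cells, which secrete antibody, while red cells lose their ER as they mature.

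Known binding motifs were searched on both strands of the 8 promoters, each the 300 bases from 250 before to 50 after the annotated start of the gene, taken from RefSeq (build GRCr8; the submitters' processing notes name rn6, another build). Positions are counted from the start site. The ER stress response element (ERSE, CCAAT and CCACG with 9 free bases between them), through which Atf6 acts, was found in 2 of the 8 promoters and in 22 of all 33469 promoters of that length (0.0657%). It lay once in Hspa5 (from position -43) and at a pair of places in Hsp90b1 (from -176, and from -72 on the other strand). The heat shock element (GAA, TTC and GAA, each 2 free bases apart) was found in Hspa8 only among the 8, from -213 and, on the other strand, from -55, and in 0.798% of all promoters. The ERSE-II element (ATTGG and CCACG with 1 free base between them, in 0.0508% of all promoters), the element TGACGTGG bound by Xbp1 (0.595%) and both forms of the amino acid response element, TGATGCAAT (0.188%) and TGATGAAAC (0.209%), had no match in any of the 8, which says only that these letters are not in these windows. Asns held 3 copies of the GC box GGGCGG, the first of them overlapping the second; 6 of the 8 promoters and 33.1% of all promoters held a GC box. The 4 promoters shown here are those with an ERSE or a heat shock element and that of Asns, of the 8 the gene whose level differed most between unstressed strains; capitals mark the ERSE in Hspa5 (chr3:38452766-38453065, plus strand) and Hsp90b1 (chr7:23012244-23012543, minus strand), the heat shock element in Hspa8 (chr8:50080264-50080563, plus strand) and the GC box in Asns (chr4:36769366-36769665, minus strand). Only exact matches were searched, so copies of an element with other letters are not counted. A match is a description of the sequence and not a site shown to be bound.
Hspa5: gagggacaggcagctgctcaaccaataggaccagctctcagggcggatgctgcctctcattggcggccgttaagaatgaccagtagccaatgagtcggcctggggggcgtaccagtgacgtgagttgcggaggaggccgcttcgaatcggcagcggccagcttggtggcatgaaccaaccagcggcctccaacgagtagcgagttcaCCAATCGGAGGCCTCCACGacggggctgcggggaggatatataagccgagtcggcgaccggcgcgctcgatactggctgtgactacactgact
Hsp90b1: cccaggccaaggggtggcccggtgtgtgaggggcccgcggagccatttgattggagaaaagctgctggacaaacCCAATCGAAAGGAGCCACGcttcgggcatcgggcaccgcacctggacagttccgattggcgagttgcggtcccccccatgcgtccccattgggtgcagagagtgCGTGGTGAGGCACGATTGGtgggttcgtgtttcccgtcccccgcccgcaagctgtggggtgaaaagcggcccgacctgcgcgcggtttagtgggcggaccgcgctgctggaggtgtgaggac
Hspa8: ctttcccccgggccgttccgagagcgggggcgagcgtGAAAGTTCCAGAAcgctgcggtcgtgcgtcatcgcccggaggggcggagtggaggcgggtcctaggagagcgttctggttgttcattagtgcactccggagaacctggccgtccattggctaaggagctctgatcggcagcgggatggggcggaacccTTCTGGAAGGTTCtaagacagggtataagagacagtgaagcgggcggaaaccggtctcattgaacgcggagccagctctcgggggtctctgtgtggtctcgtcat
Asns: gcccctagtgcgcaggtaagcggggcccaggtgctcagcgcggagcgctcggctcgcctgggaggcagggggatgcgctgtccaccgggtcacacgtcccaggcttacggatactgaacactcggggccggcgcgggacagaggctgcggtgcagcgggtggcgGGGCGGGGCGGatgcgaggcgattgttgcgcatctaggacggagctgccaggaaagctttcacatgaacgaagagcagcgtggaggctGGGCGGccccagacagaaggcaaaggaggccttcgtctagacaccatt

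Levels are given as read counts or as CPM, in which each count is divided by its library's TMM-scaled total. Genes received 1691956 to 3846263 counts a library, but the 3 most abundant features took 88.9% to 94.6% of them, which left 90796 to 419789 counts for all other genes. Reads recorded as ambiguous between features took 78.3% to 83.6% of all counts. The 8 genes together had 53 to 291 counts a library. The limit that a count of 0 allows, 3 counts in a library, corresponded to 0.602 CPM at the lowest and to 3.41 CPM in unstressed F344 replicate 3, the shallowest library, and covers counting error only. TMM factors ran from 0.521 in that library and 0.625 in unstressed F344 replicate 2 to 1.53 in stressed F344 replicate 1. The libraries had the markers of blood: the 8 red cell genes with a row summed to between 20770 and 42510 CPM, and genes of T cells, B cells, monocytes, neutrophils and platelets were present in every group. The 6 genes with a row on a plasma cell list were low, at 1.96 to 5.61 CPM summed, and none was tested. Irf4 was the largest part, with group means of 1.48 to 2.23 CPM. Mzb1, Tnfrsf17 and Sdc1 averaged at most 0.427 CPM in any group, and Jchain had no row. In whole blood, fewer cells of a type and less RNA per cell cannot be told apart.

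Asns encodes asparagine synthetase, which makes asparagine from aspartate and glutamine and is a standard target of Atf4. It had 5, 9 and 8 counts in unstressed WKY libraries, against 19, 15 and 17 in unstressed F344 libraries. Scaled, these were 1.14, 2.93 and 3.07 CPM in unstressed WKY, against 5.21, 9.10 and 19.3 CPM in unstressed F344. All 3 WKY values lay below all 3 F344 values. The fitted log2 fold change, WKY over F344, was -2.08 (95% interval -3.08 to -1.08), which is 0.236 times the F344 level. It is given without a test, since Asns was chosen on this difference. Of all 2781 genes 0.683% passed an adjusted p of 0.05 in this comparison and 6.33% had WKY values wholly below the F344 values; as Asns was chosen here, nothing is read from these shares.

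The strain difference in Asns was tested in the stressed rats, whose libraries are not in the difference that chose it. The fit still took its estimate of spread from all 4 groups, the unstressed ones included. In the stressed rats Asns stood at 4.56, 2.59 and 4.57 CPM in WKY, against 2.81, 6.11 and 4.44 CPM in F344. The groups overlapped, with means of 3.91 ± 1.14 CPM in WKY and 4.45 ± 1.65 CPM in F344 (SD, n = 3 each). The log2 fold change was -0.11 (SE 0.45, edgeR adjusted p = 0.956) with a 95% interval of -1.02 to 0.80. Of all genes 1.40% passed in this comparison. A strain difference in Asns was not detected in stressed rats, and the interval leaves room for a difference of either sign.

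Against their own unstressed controls, stressed WKY had Asns at 3.91 ± 1.14 CPM and unstressed WKY at 2.38 ± 1.08 CPM, with log2 0.82 (SE 0.51). Stressed F344 had 4.45 ± 1.65 CPM and unstressed F344 11.2 ± 7.28 CPM, with log2 -1.16 (SE 0.44). Both are given without a test, since the unstressed libraries in them chose Asns. In both strains 1 or more stressed libraries lay within the unstressed range. Without unstressed F344 replicate 3 the F344 value was -0.62, and without replicates 2 and 3 it was -0.20. The difference between the fold changes, WKY minus F344, was log2 1.98 (95% interval 0.62 to 3.33). This difference holds the unstressed libraries that chose Asns and so is a description as well. In order of mean level the groups were unstressed F344, stressed F344, stressed WKY and unstressed WKY, and each neighbouring pair overlapped.

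**Figure D1:**
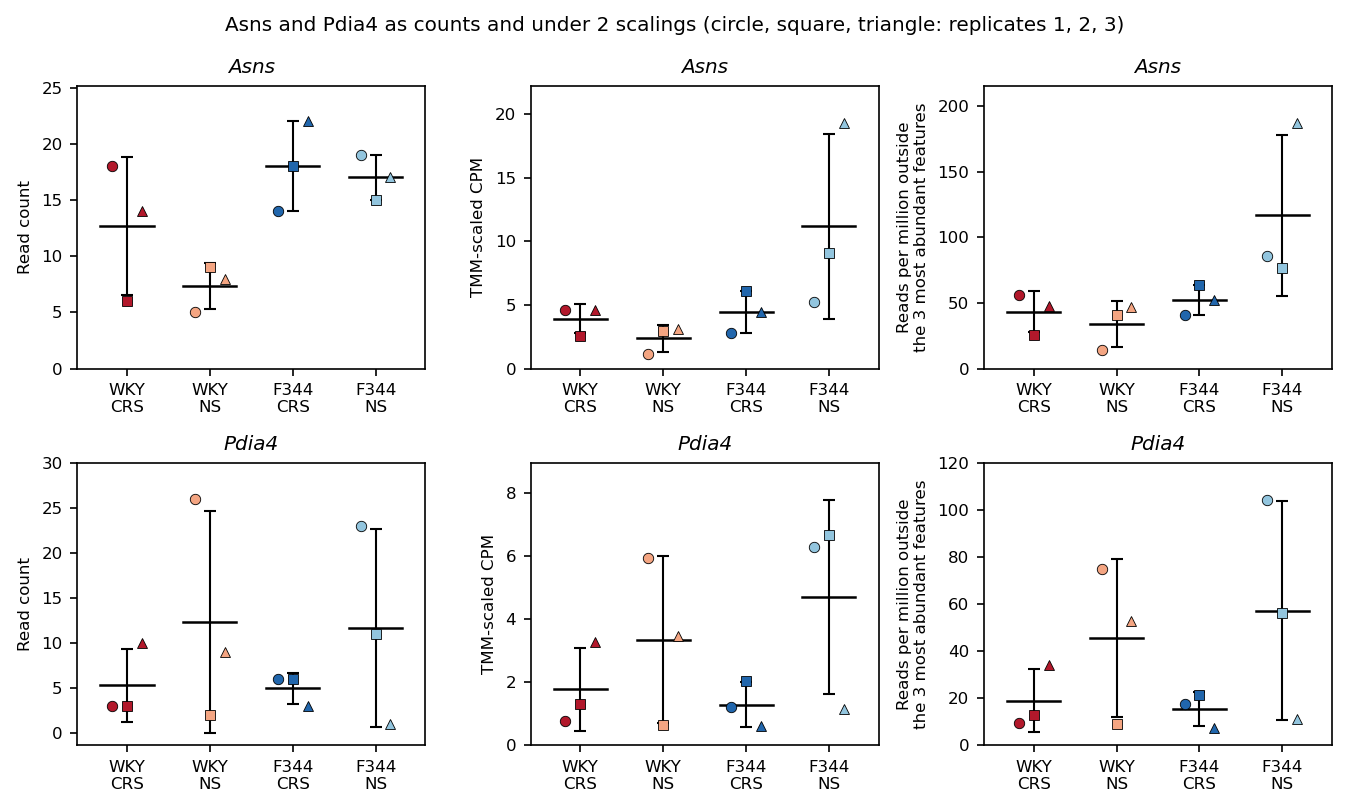
Asns (top) and Pdia4 (bottom) in each library as read counts, as TMM-scaled CPM and as counts per 1000000 counts outside the 3 most abundant features; lines are group means with SD (n = 3). For Asns, unstressed WKY lies below unstressed F344 on all 3 axes, and unstressed F344 replicate 3 stands highest at 19.3 CPM from 17 counts; for Pdia4 the unstressed groups spread from 1 to 26 counts.

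Raw counts and scaled levels of Asns differed in what they showed of unstressed F344. Its counts there, 15 to 19, were close to the 14 to 22 counts of stressed F344, while its CPM values were mostly higher. Per 1000000 counts outside the 3 most abundant features, Asns stood at 14.4, 40.6 and 46.9 in unstressed WKY, against 86.2, 76.7 and 187 in unstressed F344, again with no overlap. Without unstressed F344 replicate 3 the log2 fold change was -1.56, and without both replicates 2 and 3 it was -1.15, a value that has 1 library on the F344 side. Over all 20 alternatives it lay between -2.53 and -1.15 and stayed negative. In 9 of the 20 it no longer passed an adjusted p of 0.05, among them leaving out any 1 of 5 of the 6 libraries compared, all but unstressed F344 replicate 1. As Asns was chosen on this difference, passing or not describes how the value moved and is no test of it. Across the 12 libraries log2 CPM of Asns had Pearson's r = -0.656 with log2 depth outside the abundant features. The part of depth in the Asns difference was not tested.

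Blood cell markers also moved with strain. The 8 T cell markers with a row summed to 24.2 to 33.6 CPM in unstressed WKY, against 44.3 to 50.1 CPM in unstressed F344. The 7 monocyte markers summed to 109.5 to 129 CPM in unstressed WKY, against 53.3 to 66.6 CPM in unstressed F344; most of this sum was Lyz2, at a mean of 97.7 CPM in unstressed WKY and 47.5 CPM in unstressed F344. After CRS the T cell and monocyte sums were 20.3 to 29.4 and 114 to 160 CPM in WKY, against 37.0 to 45.5 and 75.6 to 82.1 CPM in F344. Neither sum overlapped between strains under either treatment. On a list of 7 eosinophil and basophil markers Alox15 alone was tested, at a mean of 41.0 CPM in unstressed WKY and 133 CPM in unstressed F344. Epx and Prg2, which encode eosinophil granule proteins, averaged 0.0762 and 0.153 CPM in unstressed WKY, against 0.202 and 0.0913 CPM in unstressed F344. Cpa3 was at 0 in all libraries. With these genes near 0 in unstressed rats, Alox15 is not read as a measure of eosinophils or basophils. The part of these markers in the Asns values was not tested.

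The genes whose pattern was most like that of Asns, among 1083 genes averaging at least 5 CPM, were Ntng2 (Pearson's r = 0.828 over the 12 libraries), the fatty acid receptor gene Cd36 (0.807), Ss18 (0.804), Fech, which encodes the last enzyme of heme synthesis (0.784), and the splicing factor gene Rbm39 (0.783). All 5 had their highest mean in unstressed F344. Cd36, for one, averaged 3.46 ± 2.33 CPM in unstressed WKY and 9.67 ± 6.22 CPM in unstressed F344 (SD, n = 3 each). These libraries share a range of depth, so the likeness is a description.

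Pdia4 encodes an ER enzyme of the protein disulfide isomerase family, which forms and rearranges disulfide bonds in proteins bound for secretion. It had 3, 3 and 10 counts in stressed WKY, against 26, 2 and 9 in unstressed WKY. It had 6, 6 and 3 counts in stressed F344, against 23, 11 and 1 in unstressed F344. In both strains the highest libraries were unstressed, but the groups overlapped: unstressed WKY replicate 2 was the lowest of its strain in CPM, and unstressed F344 replicate 3, with 1 count, lay among the stressed libraries. In CPM, stressed WKY averaged 1.77 ± 1.32 and unstressed WKY 3.35 ± 2.65, with log2 -0.99 (SE 0.63, edgeR adjusted p = 0.958), or -0.17 without unstressed WKY replicate 1. Stressed F344 averaged 1.28 ± 0.718 CPM and unstressed F344 4.70 ± 3.10 CPM, with log2 -2.12 (SE 0.64, edgeR adjusted p = 0.524).

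Averaged over both strains, the Pdia4 difference was log2 -1.56 (SE 0.45), or 0.34 times the unstressed level. It had an unadjusted p of 0.0014 and an edgeR adjusted p of 0.495, and did not pass. Of all genes 0.0360% passed in this comparison and 7.01% had an unadjusted p under 0.05. By p, Pdia4 ranked 7 among the 2781 genes tested here and 11 for CRS in F344. The genes were chosen with earlier results of these data known, and Pdia4 may have been chosen on this difference. Pdia4 also passed the filter on low counts only through unstressed libraries with high counts. Its p-values, ranks and sign for CRS are therefore descriptions, and nothing is read from these shares. The value was negative in each of the alternatives run, between -1.96 and -1.13, and the adjusted p, from edgeR or DESeq2, lay between 0.0736, without stressed WKY replicate 3, and 0.903. Pdia4 was also the most variable of the 7 genes: beyond counting error its libraries varied by 39.1%, a spread larger than or equal to that of 97.2% of the genes tested. The 6 plasma cell list genes summed to 1.96 to 5.61 CPM in stressed WKY and 2.93 to 4.12 CPM in unstressed WKY. In F344 these sums were 3.02 to 3.61 CPM after CRS and 2.27 to 4.25 CPM without stress, with overlap throughout. With Irf4 the largest part and none of these genes tested, the sums are not read as a level of plasma cells. Platelet markers summed to 99.9 to 165 CPM in stressed WKY and 55.3 to 115 CPM in unstressed WKY, and to 80.0 to 93.6 CPM in stressed F344 and 40.9 to 66.6 CPM in unstressed F344, with no overlap in F344. All 7 platelet markers tested lay above 0 for CRS in both strains, beside 51.2% of all genes in WKY and 51.0% in F344. Their median was log2 0.66 averaged over strains. Averaged, 3 had an unadjusted p under 0.05 and 0 passed by edgeR or DESeq2. Their part in the Pdia4 values was not tested. Between strains Pdia4 stood at log2 0.53 after CRS (SE 0.71, edgeR adjusted p = 0.854) and -0.60 without stress (SE 0.57, edgeR adjusted p = 0.838).

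**Figure D2:**
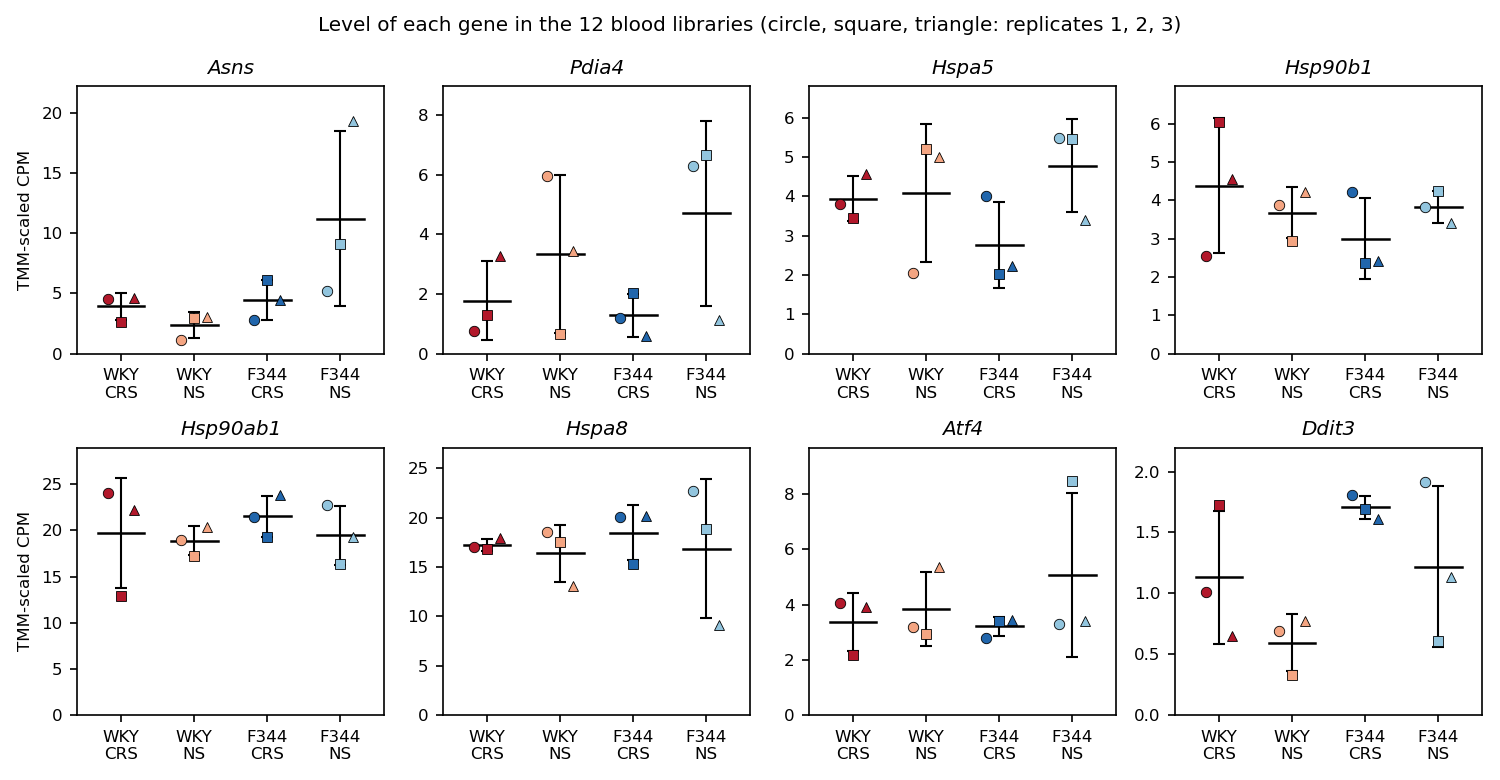
TMM-scaled CPM of the 8 genes in each library, by strain and treatment; lines are group means with SD (n = 3), and each gene has its own vertical axis. Hsp90ab1 and Hspa8 averaged 16.4 to 21.5 CPM in all 4 groups, while Asns spread from 1.14 CPM in unstressed WKY to 19.3 CPM in unstressed F344.

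Hspa5 encodes BiP, the main Hsp70 chaperone of the ER, which also holds the stress sensors inactive. It stood at 3.80, 3.45 and 4.57 CPM in stressed WKY, against 2.06, 5.21 and 4.996 CPM in unstressed WKY. The stressed values lay inside the unstressed range, with log2 0.0087 (SE 0.42, edgeR adjusted p = 0.996). In stressed F344 it stood at 4.01, 2.04 and 2.22 CPM, against 5.48, 5.46 and 3.41 CPM in unstressed F344. There the stressed values were mostly lower, but replicate 1 after CRS exceeded replicate 3 without stress, a library with 3 counts for Hspa5 (log2 -0.83, SE 0.45, edgeR adjusted p = 0.918). Between strains the log2 fold change, WKY over F344, was 0.48 after CRS (SE 0.44, edgeR adjusted p = 0.749) and -0.36 without stress (SE 0.45, edgeR adjusted p = 0.892). The genes most like Hspa5 in pattern reached only r = 0.664, for the transporter gene Slc22a4; others were at 0.615 for Cdc42se1, 0.599 for the lipid receptor gene S1pr1 and 0.59 for the kinase gene Cdk13.

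Hsp90b1 encodes Grp94, the Hsp90 chaperone of the ER, and its promoter window above held a pair of exact ERSE matches where that of Hspa5 held 1. It averaged 4.38 ± 1.76 CPM in stressed WKY and 3.68 ± 0.673 CPM in unstressed WKY, with log2 0.20 (SE 0.43, edgeR adjusted p = 0.975). The highest library was stressed WKY replicate 2 at 6.04 CPM and the others of that group stood at 2.54 and 4.57 CPM. In stressed F344 it averaged 3.00 ± 1.05 CPM and in unstressed F344 3.83 ± 0.421 CPM, with log2 -0.34 (SE 0.46, edgeR adjusted p = 0.999). The strains differed by log2 0.46 after CRS (SE 0.42, edgeR adjusted p = 0.754) and -0.076 without stress (SE 0.47, edgeR adjusted p = 0.975). None of these passed, and across the 12 libraries log2 CPM of Hspa5 and Hsp90b1 had r = 0.405. The 21 pairs among the 7 genes had r from -0.545 to 0.495 with a median of 0.0998; with counts this low no pair is read as moving together.

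The cytosolic chaperones were the best measured of the set. Hsp90ab1 encodes Hsp90 beta, the constitutive Hsp90 that matures kinases and steroid receptors, the glucocorticoid receptor among them. It had 30 to 95 counts in stressed WKY, 53 to 83 in unstressed WKY, 57 to 118 in stressed F344 and 17 to 83 in unstressed F344. It averaged 19.7 ± 5.96 CPM in stressed WKY and 18.9 ± 1.56 CPM in unstressed WKY (SD, n = 3 each), against 21.5 ± 2.23 and 19.5 ± 3.18 CPM in stressed and unstressed F344. The groups overlapped in each comparison. Averaged over strains, CRS over no stress was log2 0.11 (edgeR adjusted p = 0.975), with a 95% interval of 0.80 to 1.45 times the unstressed level.

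Hspa8 encodes Hsc70, the constitutive Hsp70 that folds new proteins and strips clathrin from vesicles. It stood at 17.0, 16.8 and 17.95 CPM in stressed WKY, against 18.5, 17.6 and 13.1 CPM in unstressed WKY. In stressed F344 it stood at 20.1, 15.3 and 20.2 CPM, against 22.7, 18.8 and 9.08 CPM in unstressed F344. All groups overlapped, and the lowest value was that of unstressed F344 replicate 3, from 8 counts. Averaged over strains, CRS over no stress was log2 0.058 (edgeR adjusted p = 0.992), with a 95% interval of 0.765 to 1.41 times the unstressed level. WKY over F344 was log2 -0.11 after CRS (edgeR adjusted p = 0.938) and -0.12 without stress (edgeR adjusted p = 0.947). These intervals leave out changes of 1.5 times or more in the averaged comparison for both genes, but not in single strains, where the upper bounds were 1.60 to 1.67 times. Log2 CPM of Hspa8 had r = 0.769 with log2 depth over the 12 libraries, and the part of depth in its values was not tested. In the GRCr8 gene list 33 entries are named as pseudogenes of Hspa8 and 23 as pseudogenes of Hsp90ab1, so reads may be split between copies and both levels are uncertain.

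Atf4, the transcription factor that Perk and Gcn2 act through, is controlled mainly in translation, so its RNA need not follow its activity. It stood at 4.06, 2.16 and 3.92 CPM in stressed WKY, against 3.20, 2.93 and 5.38 CPM in unstressed WKY. In stressed F344 it stood at 2.81, 3.39 and 3.43 CPM, against 3.29, 8.49 and 3.41 CPM in unstressed F344. Replicate 2 of unstressed F344 was high and the other 11 libraries lay between 2.16 and 5.38 CPM. The log2 fold changes of CRS over no stress were -0.11 in WKY (SE 0.45, edgeR adjusted p = 0.976) and -0.63 in F344 (SE 0.46, edgeR adjusted p = 0.975), and without that library the F344 value was -0.021. WKY over F344 was log2 0.12 after CRS (edgeR adjusted p = 0.951) and -0.40 without stress (edgeR adjusted p = 0.873). In unstressed rats, where Asns was lower in WKY, the 95% interval of Atf4 was log2 -1.33 to 0.54.

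Ddit3 encodes Chop, a factor downstream of Atf4 that promotes cell death under lasting ER stress. It had 4, 4 and 2 counts in stressed WKY, against 3, 1 and 2 in unstressed WKY. In stressed F344 it had 9, 5 and 8 counts, against 7, 1 and 1 in unstressed F344. Most of these lie near the limit of 3 counts, and stressed F344 was the group with more than 3 in each library. The summed counts were 10 and 6 in stressed and unstressed WKY, and 22 and 9 in stressed and unstressed F344, whose stressed libraries were also the deepest as a group. In a fit with no low count filter, CRS over no stress was log2 0.84 in WKY (SE 0.86, edgeR adjusted p = 0.873) and 0.60 in F344 (SE 0.74, edgeR adjusted p = 0.879), and WKY over F344 was -0.73 after CRS (SE 0.72, edgeR adjusted p = 0.859) and -0.97 without stress (SE 0.88, edgeR adjusted p = 0.884). None passed, and the 95% interval in unstressed rats ran from log2 -2.71 to 0.76. Ddit3 overlaps Mars1, a methionine tRNA ligase gene, in the GRCr8 annotation, so its low counts are uncertain.

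**Figure D3:**
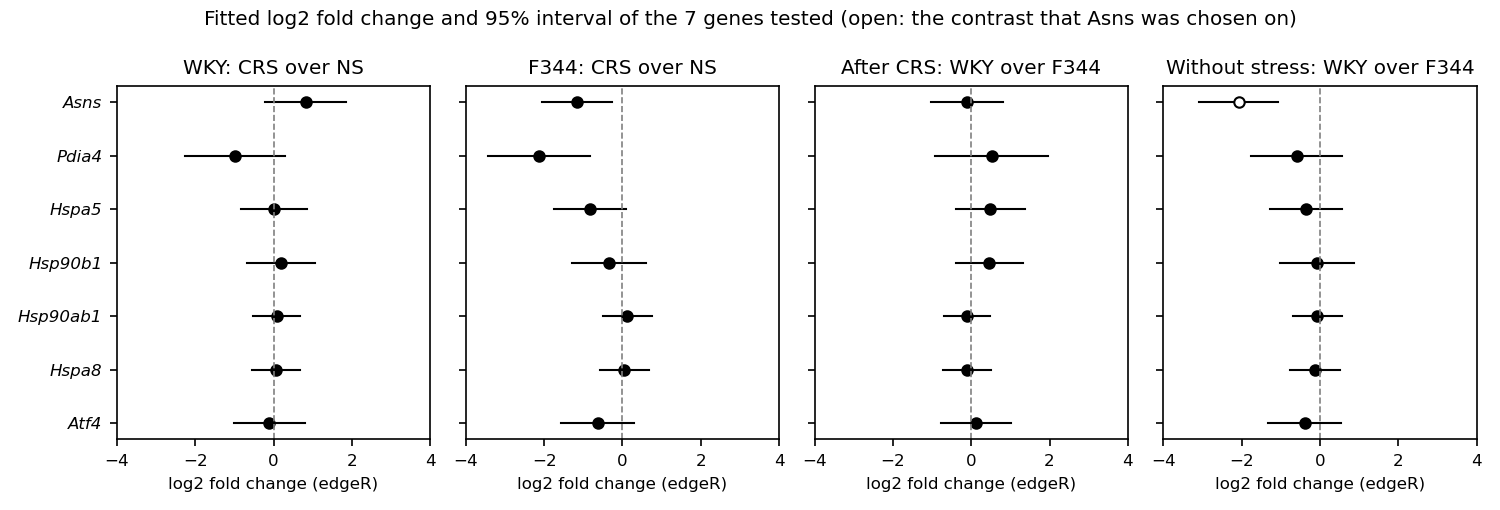
Fitted log2 fold changes (points) with 95% intervals (bars, not adjusted for the number of genes) of the 7 genes tested, in 4 comparisons. The Asns point without stress, with an interval of -3.08 to -1.08, is drawn open because Asns was chosen on it. The Asns and Pdia4 values for CRS over no stress are descriptions as well, though drawn filled. For WKY over F344 after CRS the Asns interval, -1.02 to 0.80, spans 0. Hsp90ab1 and Hspa8 lie within 0.13 of 0 in all 4 panels.

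As a set, the 7 genes tested gave 0 calls for CRS in WKY, with 5 of 7 log2 fold changes above 0 and a median of 0.065, against 51.2% above 0 and a median of 0.016 over all genes. With the total of the other features as library size, 1 of 7 was above 0 there, with a median of -0.26 against -0.32 over all genes. For CRS in F344 they gave 0 calls, with 2 of 7 above 0 and a median of -0.63, against 51.0% and a median of 0.014. At an unadjusted p under 0.05 stood 0 of the 7 in WKY (5.79% of all genes) and 2 in F344, Asns and Pdia4 (4.71% of all genes), and DESeq2 called 0 in each. Asns was chosen on the unstressed libraries used here. Pdia4 may have been chosen on this response and passed the filter only through unstressed libraries. Nothing is therefore read from these 2. Averaged over strains 2 of 7 were above 0 (50.3% of all genes). The background of called genes was 0% in both comparisons. After CRS, WKY over F344 gave 0 calls by edgeR and by DESeq2, 0 at an unadjusted p under 0.05 (307 of all 2781 genes), 4 of 7 above 0 (50.2% of all genes) and a median of 0.12. Without stress 0 of 7 were above 0 in WKY over F344 (49.3% of all genes; median -0.36, against -0.011 over all genes) and 9.35% of all genes had an unadjusted p under 0.05, a comparison that shares the unstressed F344 libraries with the F344 response and that chose Asns; with the total of the other features as library size 4 of 7 were below 0, with medians of -0.084 for the 7 and 0.21 for all genes. For the interaction, WKY response minus F344 response, 6 of 7 were above 0 (48.8% of all genes). There 0 of 7 passed by edgeR or DESeq2, with a background of 0% called. Only Asns had an unadjusted p under 0.05 (3.81% of all genes). As the unstressed libraries in the interaction chose Asns, nothing is read from that share.

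The rest of these pathways was read from 6 lists with 134 further genes, of which 40 were tested. No further gene passed in any of the 6 comparisons by edgeR, nor by DESeq2 where it gave an adjusted p, and the lowest edgeR adjusted p was 0.258. The values that follow are log2 fold changes under TMM scaling. The counts and medians are over the further genes alone, without the 8 chosen genes. Among further ER chaperones 5 of 17 were tested, with medians of log2 0.028 for CRS in WKY, -0.032 for CRS in F344, -0.025 for WKY over F344 after CRS and -0.23 without stress. Calr, which encodes the lectin chaperone calreticulin, had log2 0.18 for CRS in WKY and -0.032 in F344. Canx, its membrane-bound relative, had -0.10 and -0.031, and P4hb, another disulfide isomerase gene, 0.33 and -0.32. Pdia3, the isomerase that works with both lectins, had -0.66 for CRS in WKY and 0.0052 in F344, and -0.56 in WKY over F344 after CRS (edgeR adjusted p = 0.783).

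Of 12 further sensors and regulators of the unfolded protein response, 5 were tested. All 5 were below 0 for CRS in WKY (median -0.65) and 4 of 5 in F344 (median -0.38), beside 48.8% and 49.0% of all genes, and 0 passed by edgeR in either; 0 had an unadjusted p under 0.05 and DESeq2 called 0. Eif2ak3, which encodes Perk, had log2 -0.71 in WKY and -0.47 in F344, and -0.59 averaged over strains (SE 0.29, edgeR adjusted p = 0.697). Atf6b had -0.91 in WKY and 0.13 in F344, and -1.10 in WKY over F344 after CRS (SE 0.50, edgeR adjusted p = 0.397). Mbtps1, the protease that cuts Atf6 free, had -0.48 and -0.41 for CRS in WKY and F344, and Ppp1r15b, a subunit of the phosphatase that ends the translation block, 0.57 in WKY over F344 after CRS.

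Of 31 further amino acid response genes 7 were tested, and Chac1, Stc2, Cth and Pycr1 had 0 counts in all 12 libraries. For WKY over F344 after CRS all 7 were above 0 with a median of 0.57, beside 50.2% of all genes above 0. At an unadjusted p under 0.05 by edgeR stood 2 of the 7, beside 307 of all 2781 genes. Of the 7, 0 passed by edgeR or DESeq2. Cebpb, a leucine zipper factor, led at log2 1.28 (SE 0.48, edgeR adjusted p = 0.258), followed by Slc38a2, a transporter of neutral amino acids, at 0.82 (SE 0.38, edgeR adjusted p = 0.399); neither passed. Without stress Slc38a2 stood at 0.56 with no overlap between the strains, as did 7.70% of all genes in that direction, and Cebpb at -0.046. Slc3a2, the heavy chain of several amino acid transporters, had 0.38 for CRS in WKY and 0.074 in F344, and Pck2, the mitochondrial enzyme of gluconeogenesis, 0.33 and 0.45. Of 20 tRNA synthetase genes 3 were tested, Eprs, Iars and Qars, and Qars had log2 0.79 in WKY over F344 after CRS (SE 0.44, edgeR adjusted p = 0.527).

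Among further cytosolic and mitochondrial chaperones 10 of 36 were tested, with medians of -0.41 for CRS in WKY and 0.14 in F344. Hspa1b, the stress-inducible Hsp70 gene, stood at log2 -1.11 for CRS in WKY (SE 0.56, edgeR adjusted p = 0.885) and -0.85 in F344 (SE 0.50, edgeR adjusted p = 0.940), and -0.98 averaged (SE 0.38, edgeR adjusted p = 0.554). Hspa9, the mitochondrial Hsp70 gene, stood at -0.57 in WKY and -1.78 in F344 (SE 0.68, edgeR adjusted p = 0.918). Cct7, a subunit of the ring chaperonin that folds actin and tubulin, stood at 1.09 in WKY (SE 0.45, edgeR adjusted p = 0.787) and 0.32 in F344, and Cct5, another subunit, at 0.016 and 0.77. The heat shock factor gene Hsf1 had -0.49 in WKY and 0.51 in F344. Averaged over strains 3 of the 10 had an unadjusted p under 0.05, beside 7.01% of all genes. Of these Hspa1b and Hspa9 were lower after CRS and Cct7 was higher, and 0 passed by edgeR or DESeq2.

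Of 19 genes of ER-associated degradation, which returns misfolded proteins to the cytosol for destruction, 10 were tested. Their medians were 0.033 for CRS in WKY, 0.16 in F344, and 0.071 and 0.093 for WKY over F344 after CRS and without stress. None had an unadjusted p under 0.05 in any of the 6 comparisons. Vcp, the ATPase that pulls proteins out of the ER membrane, had -0.038 in WKY and -0.19 in F344, and Sec61a1, the pore of the ER translocon, 0.24 and 0.74. Edem3, a lectin-like factor of the pathway, had -0.53 and -0.14, and Syvn1, its ubiquitin ligase, 0.10 and 0.20.

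**Figure D4:**
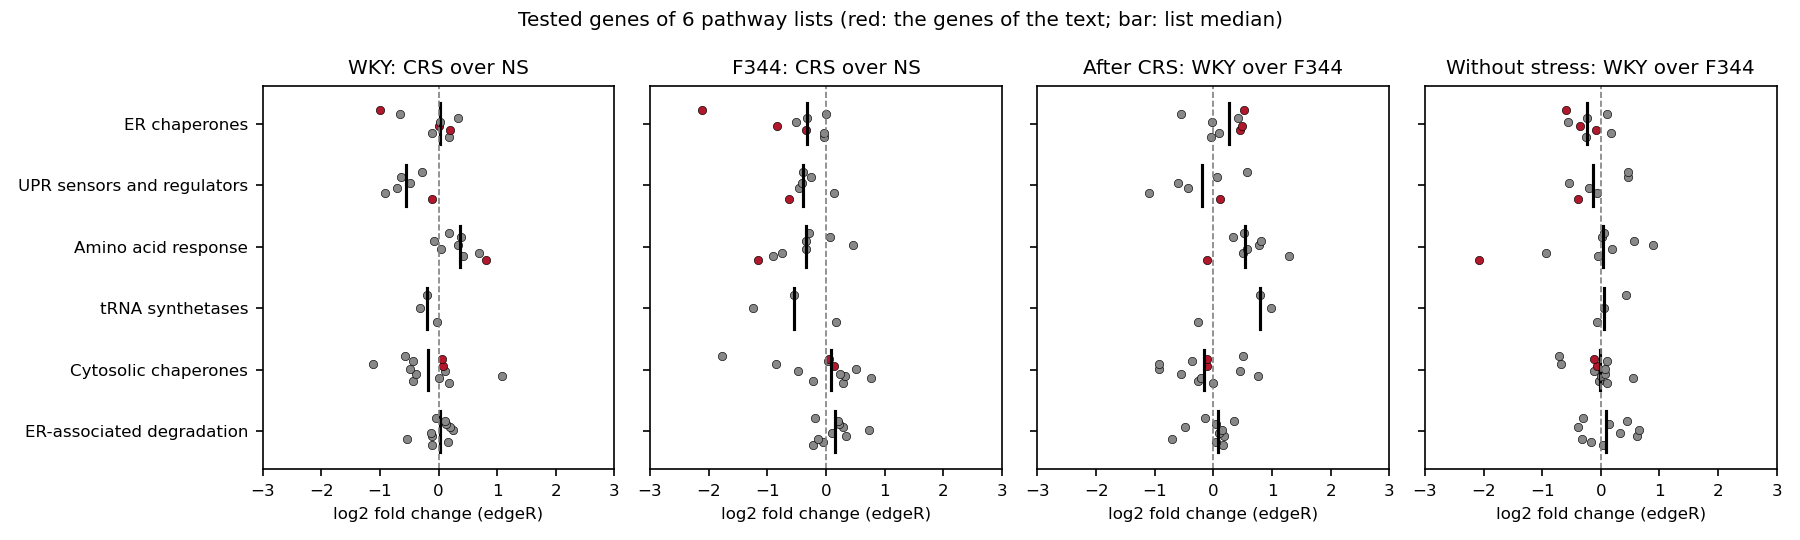
Fitted log2 fold change (horizontal axis) of each tested gene in 6 pathway lists, in 4 comparisons; red points are the genes chosen for this account, grey points the rest, and bars the list medians, chosen genes included. These medians lie between -0.56 and 0.79, the highest being that of the 3 tRNA synthetase genes after CRS, and the furthest points from 0 are Pdia4 in F344 at -2.12 and Asns without stress at -2.08.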

How the data were processed

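Blood RNA of 12 samples was sequenced on the Ion Proton platform, and the authors deposited 1 table of raw read counts per gene for each sample, per the labels. Rat build rn6 and the tools TopHat2 2.1.0, Cufflinks 2.2.1 and cutadapt 1.14 appear, with no role, in the submitters' processing notes. What counted the reads, with which annotation and strand setting, is not given in the sources used here. The 5 rows that name no gene held 80.9% to 86.6% of all counts and were left out.

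Counts were fitted with edgeR 4.0.16 in R 4.3.3: TMM scaling, the filterByExpr filter with a minimum count of 10, and the quasi-likelihood test on 1 fit of 4 group means, with Benjamini-Hochberg adjustment over the 2781 genes tested and a threshold of 0.05. Intervals are 95% and not adjusted for the number of genes. CPM is the count over the TMM-scaled total. DESeq2 1.42.0, other scalings and filters, a replicate block and left-out libraries were alternatives, and 1 scaling was added after seeing the data. The scripts were tested on simulated data. No pair of libraries of 1 group was a duplicate: their counts differed by a chi-square of 5.75 to 259 per degree of freedom.

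The members and lists were chosen with earlier results of these data known. All 8 genes are named. Of each pathway list, the rule was to name, per comparison, the gene with the smallest p in each direction. Some of these genes of ER-associated degradation are not reported here. The rule also took the 5 genes most correlated with Asns and with Hspa5 among those averaging at least 5 CPM. For Hspa5, 1 of these 5 is not reported here.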

Additional observations from a re-analysis of the deposited data

How the results depend on the processing

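Over 42 log2 fold changes of the 7 genes, 832 alternatives were run: 757 kept the direction and the side of the threshold, 66 turned sign, and 9, all for Asns in WKY over F344 without stress, kept the direction without passing. No alternative other than for that value gave an adjusted p under 0.05. The largest size in log2 of a value that turned sign was 0.63. Asns without stress lay between -2.53 and -1.15; it no longer passed with no low count filter, with only the compared groups, with the total of the other features as library size, without unstressed F344 replicates 2 and 3 together, and without any 1 of 5 unstressed libraries, all but F344 replicate 1. Passing is no test of this value in any setting, since Asns was chosen on it. The cause of the changes between settings was not tested. With the total of the other features as library size the median of all genes moved to -0.32 for CRS in WKY and 0.21 for WKY over F344 without stress.

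Genes called numbered 0 for CRS in F344, and 5 with no low count filter. For CRS in WKY they numbered 0, against 8 with no filter and 1 with the total of the other features. Averaged over strains 1 was called, against 3 by DESeq2, 6 with no filter, 2 with the replicate block, 0 without unstressed F344 replicates 2 and 3, and 4 with the total of the other features. In WKY over F344 without stress 19 were called, against 9 with only the compared groups, 5 without unstressed F344 replicates 2 and 3, and 12 with the total of the other features. For the difference between strains 0 were called, against 3 with no filter, 1 without those 2 libraries and 3 with the total of the other features. Leaving out 1 library gave 0 to 5 for CRS in F344, 0 to 2 in WKY, 0 to 5 averaged, 5 to 44 for WKY over F344 without stress, 18 to 46 after CRS, against 39, and 0 to 2 for the difference. Same-numbered libraries were not taken as pairs, since not every pair's deviations from group means correlated above 0.1 (-0.0902 to 0.204, against -0.17 to 0.134 for other numbers); 8 of 12 libraries were closest to one of their own number, a hint from the data and not the design.

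With no filter on low counts the sign turned and the log2 values were Hsp90b1 0.00609 for CRS in F344 and Asns 0.0290 and Hsp90b1 0.11 for CRS averaged over strains. The same setting gave Hsp90b1 0.14, Hsp90ab1 0.17 and Hspa8 0.10 for WKY over F344 without stress and Hspa8 -0.31 for the WKY response minus the F344 response. Without unstressed F344 replicates 2 and 3 the sign turned and the log2 values were Hsp90ab1 -0.00338, Hspa8 -0.22 and Atf4 0.0284 for CRS in F344 and Asns 0.32 and Hspa8 -0.0650 for CRS averaged over strains. The same setting gave Atf4 0.23 for WKY over F344 without stress and Hsp90ab1 0.11 and Atf4 -0.11 for the WKY response minus the F344 response. With a stricter filter the sign turned and the log2 values were Hspa8 -0.0358 for CRS in F344 and Hspa8 -0.0112 for CRS averaged over strains. The same setting gave Hsp90ab1 0.00303 for the WKY response minus the F344 response. With only the compared groups in the fit the sign turned and the log2 values were Hspa5 -0.00802 for CRS in WKY. With the total of the other features as library size the sign turned and the log2 values were Hspa5 -0.35, Hsp90b1 -0.14, Hsp90ab1 -0.24 and Hspa8 -0.26 for CRS in WKY and Hsp90ab1 -0.0441 and Hspa8 -0.0878 for CRS averaged over strains. The same setting gave Hsp90b1 0.14, Hsp90ab1 0.14 and Hspa8 0.0580 for WKY over F344 without stress and Atf4 -0.0264 for WKY over F344 after CRS. The same setting gave Hspa8 -0.34 for the WKY response minus the F344 response. With the replicate block the sign turned and the log2 values were Hspa8 -0.00679 for the WKY response minus the F344 response. With 1 library left out at a time, the values that turned sign ranged, for CRS in F344, over Hspa8 -0.14 to 0.36. For CRS in WKY they ranged over Hspa5 -0.35 to 0.28, Hsp90b1 -0.0646 to 0.52, Hsp90ab1 -0.0795 to 0.31, Hspa8 -0.0615 to 0.18 and Atf4 -0.26 to 0.17. For CRS averaged over strains they ranged over Asns -0.39 to 0.11, Hsp90b1 -0.23 to 0.10 and Hspa8 -0.0288 to 0.22. For WKY over F344 without stress they ranged over Hspa5 -0.58 to 0.0207, Hsp90b1 -0.14 to 0.0847, Hsp90ab1 -0.16 to 0.11, Hspa8 -0.33 to 0.18 and Atf4 -0.76 to 0.20. For WKY over F344 after CRS they ranged over Asns -0.37 to 0.14, Pdia4 -0.28 to 0.97, Hsp90ab1 -0.28 to 0.10 and Atf4 -0.0299 to 0.32. For the WKY response minus the F344 response they ranged over Hsp90ab1 -0.23 to 0.15, Hspa8 -0.29 to 0.23 and Atf4 -0.0703 to 0.89.

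The 8 genes together had 53 to 291 counts a library, with 3 libraries in each group. Moderate changes in single strains could not be told from the spread, and the part of depth in this was not tested.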
